A study of Mus musculus with 3 samples.

Results

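The clustered protocadherins are cadherin-type adhesion proteins of neurons, encoded side by side on mouse chromosome 18 in an alpha, a beta and a gamma subcluster. Members were taken as table rows whose name starts with Pcdha, Pcdhb or Pcdhg followed by a digit or the letter c and whose locus lies in this part of the chromosome. This gave 40 of the 24458 rows: 15 alpha, 22 beta and 3 gamma rows. The gamma rows are the C-type genes Pcdhgc3, Pcdhgc4 and Pcdhgc5. The 19 rows of the gamma A and B types (Pcdhga1 to Pcdhga12, Pcdhgb1 to Pcdhgb8) are spelled otherwise, were not taken, and are set beside the members. RNA was sequenced from the dentate gyrus of C57BL/6 mice at 8 weeks of age, 1 library per animal, and all 3 libraries analysed carry the label E24. The series is about neuronal activation. The name of their table also carries WT and ECT. The labels spell out none of these 3 names and give no treatment, sex or time for E24, and with no second group no comparison between conditions was made. Values are RPKM, reads scaled by gene length and by the mapped reads of the library, and read depth is unknown. In tissue RNA, fewer cells of a type and less RNA per cell cannot be told apart.

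Alpha and gamma protocadherins each join their own variable exon to constant exons shared by the subcluster, while beta protocadherins are encoded whole by a single exon. Each variable exon has its own promoter, and single neurons use a few of them, in choices that involve DNA methylation, the factor CTCF and cohesin. The proteins bind copies of themselves on other membranes and serve neurites of the same cell to recognise and avoid each other. C-type genes are used more uniformly than the others.

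The annotation and the table show this layout. In mm9, the build of the table, the alpha, beta and gamma rows span chromosome 18 from 37089938 to 38001526. Of the 15 alpha loci, 13 end at the same base, 37347311, and all 3 gamma C-type loci end at 38001526. The 22 beta loci are 2320 to 5271 bp long with a median of 3334 bp and end apart. In GENCODE M21, which is on GRCm38 and was used for exon structure only, 22 of 22 beta genes had 1 coding exon. The 13 alpha genes found there and the 3 gamma C-type genes had 4 coding exons each. The last coding exon was common to 13 alpha genes, and another was common to 22 gamma genes. Shared sequence made up a median of 59.5% of the 50-base words of an alpha transcript and 44.2% of those of a gamma C-type transcript, against 4.26% of those of a beta transcript. How the counting divided reads of the constant exons among genes is not given in the sources used here, so the levels of single alpha and gamma genes are uncertain.

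A run of values that recurs in the 3 libraries stood at different table rows in each, and is taken here as that of the cluster. Loci from Pcdha1 to Pcdhb22, with those of the carrier gene Slc25a2 and the transcription factor subunit gene Taf7, overlap through the long locus Pcdha4-g and form a block of 61 consecutive rows. No other group of overlapping loci in the table has 61 rows. A stretch of 21 rows in the middle of this block in replicate 1 was set against 24438 starting rows in each other library. In replicate 2 the best match lay 45 rows further down, with 21 of 21 values within 2-fold, against 15 of 21 at the next best start. In replicate 3 it lay 58 rows further down, with 21 of 21 values, against 16 of 21 at the next best start.

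**Figure D1:**
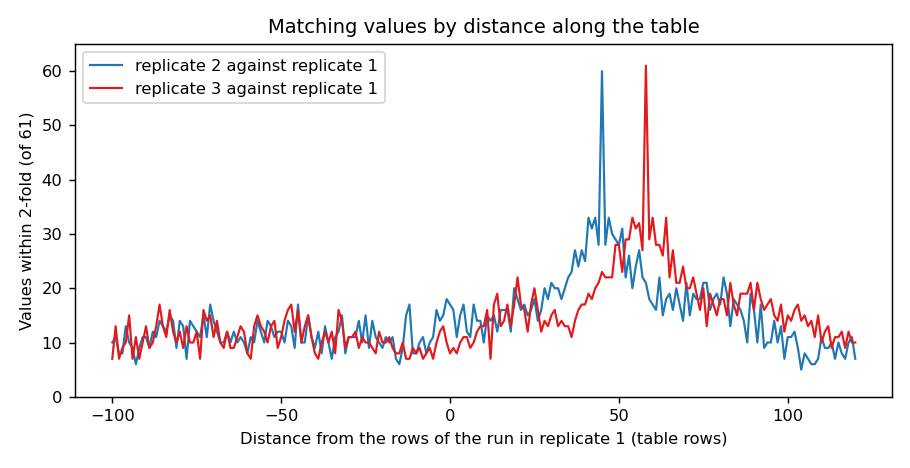
Number of the 61 values of replicate 1 that lie within 2-fold of the values of replicate 2 (blue) or replicate 3 (red), by distance along the table in rows, with 0.1 RPKM added. Sharp peaks of 60 and 61 matching values stand at 45 and 58 rows.

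Extended from there while all 3 libraries stayed within a log2 difference of 1.5, the match ended after exactly 61 rows. Limits of 2 and 3 gave 61 rows as well, and a limit of 1 gave 60. This run of values starts 6 rows below the first row of the cluster in replicate 1, 51 rows below it in replicate 2 and 64 rows below it in replicate 3. Of the 40 member rows, 34 hold values of the run in replicate 1, 8 in replicate 2 and 0 in replicate 3. The remaining values of the run in replicates 2 and 3 stand mostly on rows named for chromosome 19 genes. One of them stands on the row of the myelin gene Mbp, with 1.04 RPKM in replicate 2 and 3.70 RPKM in replicate 3. In and around 3 other large groups of overlapping loci, the common run with the most expressed rows was sought over many shifts between libraries. This differs from the search above, and results were mixed. The 23 rows from Cgref1 to Gckr on chromosome 5 matched a common run of 23 values, which starts 6, 4 and 6 rows above its names in replicates 1, 2 and 3. For the 74 rows from Sfmbt2 to Mir669h the common run had 6 rows, and for the 23 rows of the Gm14405 group 10 rows, both shorter than their groups. Both runs lay outside their group, starting 24 and 60 rows above its first row in all 3 libraries. They do not describe the values of these groups.

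**Figure D2:**
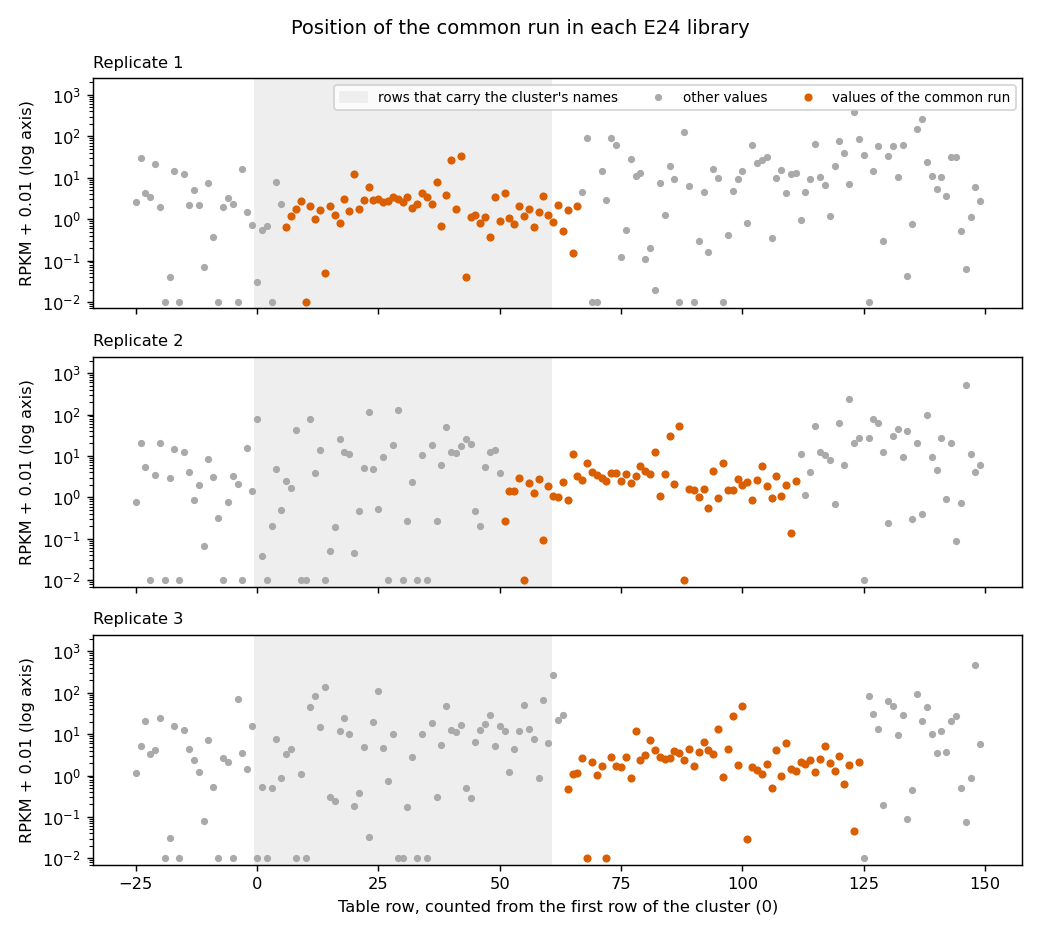
RPKM + 0.01 on a log axis by table row, counted from the first row of the cluster, in the 3 E24 libraries. Grey shading marks the 61 rows that carry the names, and orange points are the run, which starts 6, 51 and 64 rows below the first of them.

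Along the run the libraries followed each other closely. Between replicates 1 and 2, Pearson's r over the 40 member places was 0.98 on the log2(RPKM + 1) scale, against 0.19 over the rows that carry the names. It was 0.98 against 0.16 between replicates 1 and 3, and 0.99 against 0.18 between replicates 2 and 3. These are correlations across genes, which are not independent replicates, and the run was chosen for its agreement, so they describe it and test nothing. Below, the place in the run is called by the name that stands at the same place among the 61 rows of the cluster. The file does not state this order, and the assignment was made after the values were seen. Values at the named rows follow afterwards.

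Gamma C-type places had the highest levels of the cluster. The Pcdhgc5 place held 33.6, 52.0 and 47.7 RPKM in replicates 1, 2 and 3, a mean of 44.4 ± 9.61 (SD, n = 3). The Pcdhgc3 place, of a gene known to promote dendrite branching, held 27.5, 29.5 and 27.4 RPKM. Every value of the Pcdhgc5 place lay above every value of the Pcdhgc3 place. The Pcdhgc4 place, of a gene needed for the survival of interneurons, was far lower at 1.71, 2.08 and 1.81 RPKM. The 3 gamma C-type places together carried 34.0% ± 1.09 of the summed RPKM of the 59 protocadherin places (SD, n = 3).

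The alpha places were led by 1 C-type gene. The Pcdhac2 place, of a gene needed for the spacing of serotonergic axons, held 12.3, 11.1 and 11.9 RPKM, against a median of 1.40 RPKM over the 12 places Pcdha1 to Pcdha12. The other alpha C-type place, Pcdhac1, held 1.56, 0.838 and 0.850 RPKM. Among the 12 alternate alpha places, Pcdha4 and Pcdha12 were highest, with means of 2.78 ± 0.116 and 2.70 ± 0.313 RPKM (SD, n = 3). The Pcdha1 place held 0.626, 0.258 and 0.464 RPKM, and the Pcdha8 place had 0.0409 ± 0.0410 RPKM. The Pcdha4-g place was near 0 in all 3 libraries, at 5.48e-05 RPKM or less.

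Beta places had means of 0.0162 to 5.75 RPKM, with a median of 1.48 RPKM. The highest, Pcdhb9, held 4.19, 6.82 and 6.22 RPKM. The Pcdhb17 place held 3.70, 5.55 and 5.23 RPKM, and the Pcdhb7 place 3.45, 4.33 and 4.08 RPKM. The ranges of Pcdhb9 and Pcdhb17 overlapped, as did those of Pcdhb17 and Pcdhb7, though each pair kept its order within every library. The first beta place, Pcdhb1, stood apart at the low end with 0.0296, 0 and 0.0190 RPKM, and the next lowest, Pcdhb6, held 0.365, 0.546 and 0.497 RPKM. The last, Pcdhb22, had 1.82 ± 0.190 RPKM (SD, n = 3).

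**Figure D3:**
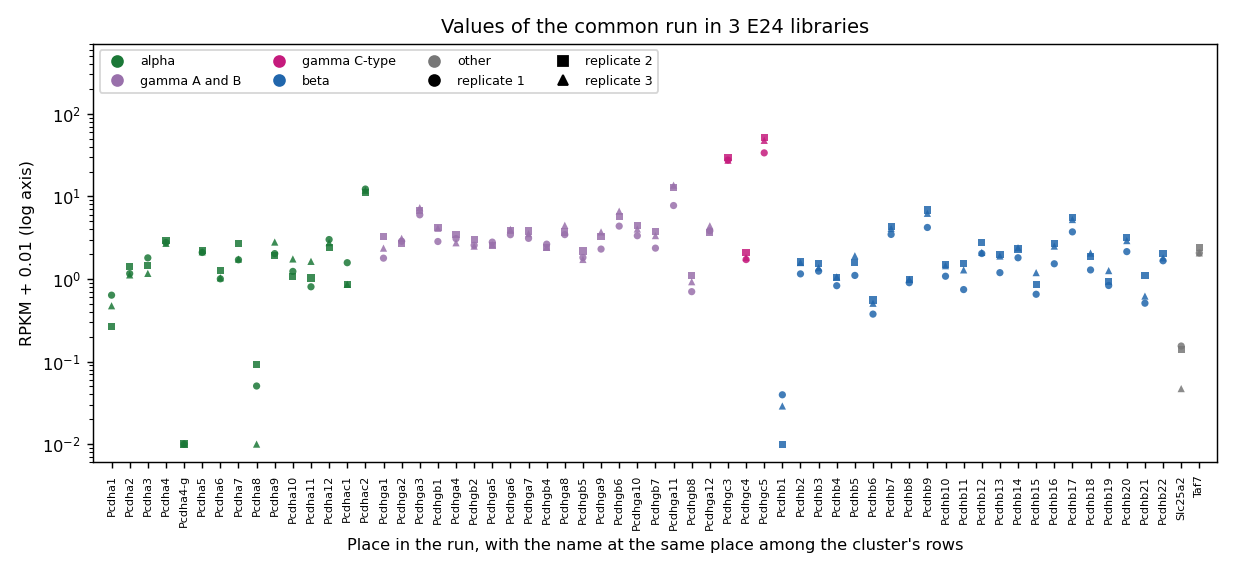
RPKM + 0.01 on a log axis for the 61 places of the run in replicates 1 (circles), 2 (squares) and 3 (triangles), coloured by block. Pcdhgc5, Pcdhgc3 and Pcdhac2 stand highest among the members, and Pcdha4-g, Pcdhb1 and Pcdha8 lowest.

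Most members could not be ranked against their neighbours by their ranges. By mean level in the run, 3 members were above 10 RPKM, 2 between 4 and 10, 10 between 2 and 4, 16 between 1 and 2, 6 between 0.1 and 1, and 3 below 0.1 RPKM. Of the 39 neighbouring pairs in the order of levels, 5 had ranges that did not overlap. They set off Pcdhgc5, Pcdhgc3 and Pcdhac2 at the top, Pcdhb7 above Pcdha4, and Pcdha1 above Pcdha8. The other 34 pairs overlapped, so that their order is not resolved by ranges over 3 animals. Ranges leave out the pairing of places within a library. Pcdhb9 lay above Pcdhb17, and Pcdhb17 above Pcdhb7, in each of the 3 libraries. How many other pairs keep their order within every library was not counted.

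As blocks, the places gave means of log2(RPKM + 1) of 3.95 ± 0.15 for gamma C-type, 1.37 ± 0.16 for beta and 1.32 ± 0.02 for alpha (SD, n = 3). The mean over all rows of the table was 1.88 ± 0.01. Gamma C-type places exceeded alpha places by 2.46, 2.79 and 2.64 in replicates 1, 2 and 3. They exceeded beta places by 2.61, 2.61 and 2.53. The gamma C-type block holds only 3 places, of which Pcdhgc4 had a mean of 1.87 RPKM. How reads of the constant exons were divided is unknown, so differences between blocks are uncertain too. Alpha minus beta was 0.14, -0.18 and -0.12, a difference within the spread between animals. The 19 gamma A and B places had a mean of 2.13 ± 0.12, and the gamma C-type mean lay above theirs by 1.82 ± 0.06. With 3 animals the exact sign-flip permutation test cannot go below p = 0.25, and no test was made of these block means. Among the A and B places the highest was Pcdhga11 at 11.4 ± 3.19 RPKM, near the level of Pcdhac2.

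Most member places were at 1 RPKM or more. The share was 67.5%, 77.5% and 80.0% in replicates 1, 2 and 3, against 50.2%, 49.3% and 49.5% of all rows of the table. By block, 100% of gamma C-type, 74.2% ± 9.46 of beta and 71.1% ± 3.85 of alpha places reached it (SD, n = 3). Of the 40 member places, 26 reached it in all 3 libraries and 6 in none. Of the 24458 rows of the table, read by row name, 7913 reached it in all 3 and 8074 in none. Few lay far enough above this level to be called. With the run placed on the rows of the cluster and all rows fitted, 5 of 40 members were above 1 RPKM (limma, one-sided, adjusted p under 0.05), where 18.5% of all rows were. They were Pcdhgc3, Pcdhac2, Pcdhgc5, Pcdhb9 and Pcdhb17. Without replicate 1, 5 members were called, where 20.4% of all rows were. Without replicate 2 or without replicate 3 the calls of Pcdhb9 and Pcdhb17 were lost and 3 remained, while the share of all rows called was 12.7% and 11.0%. Since the run was found by the agreement of the libraries, its small spread enters these calls.

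Replicate 1 was lower than the others over the beta places. Of the 20 beta places at a mean of 0.5 RPKM or more, replicate 1 had the lowest value in 20, with a median log2 ratio of -0.49 to the mean of replicates 2 and 3. The ratio was -0.93 at the Pcdhb11 place and -0.13 at the Pcdhb8 place. Over 12 alpha places the median was -0.09, with replicate 1 lowest in 4 and highest in 4. The 3 gamma C-type places gave -0.19 and the 19 gamma A and B places -0.25. Over the 7913 rows of the table at 1 RPKM or more in all libraries, read by row name, it was 0.00. Values at named rows may be displaced between libraries, so that ratio need not compare the same genes. Replicates 2 and 3 differed less, with a median log2 ratio of 0.07 over the beta places. The labels give no batch, and the part of library preparation in this difference was not tested.

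**Figure D4:**
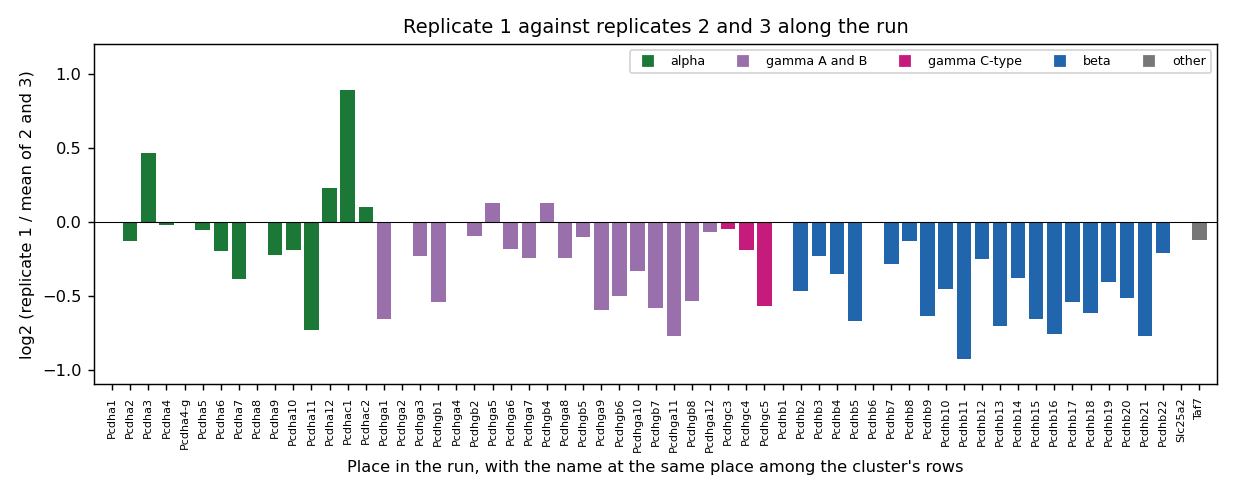
Log2 ratio of replicate 1 to the mean of replicates 2 and 3 at each place of the run with a mean of 0.5 RPKM or more, coloured by block. All 20 beta bars are below 0, with a median of -0.49, while alpha bars lie on both sides.

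Read at the rows that carry the names, the same members looked different. The alpha rows had block means of 1.04, 2.07 and 2.25 in replicates 1, 2 and 3, the beta rows 1.63, 2.39 and 3.09, and the gamma C-type rows 2.09, 2.59 and 2.58. Replicate 1 was lowest in each block. Gamma C-type minus alpha was 1.06, 0.52 and 0.34 at these rows, and gamma C-type minus beta 0.47, 0.20 and -0.51. Alpha minus beta was -0.59, -0.32 and -0.84, below 0 in all 3 libraries. The SD of the block mean over animals was 0.65 for alpha and 0.73 for beta rows, against 0.02 and 0.16 for the places of the run. The median SD of a single member over animals was 1.24 on the log2(RPKM + 1) scale at the named rows and 0.16 in the run. Over all rows of the table, rows at 0 included, it was 0.45. As the run was chosen for its agreement, its small SD is set in part by that choice and tests nothing.

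**Figure D5:**
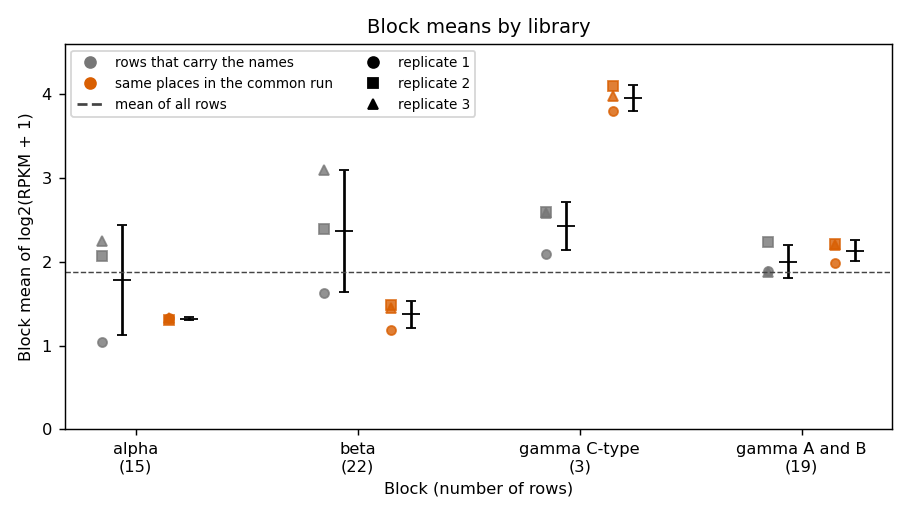
Block means of log2(RPKM + 1) in each library at the rows that carry the names (grey) and at the same places of the run (orange), with the mean and SD of the 3 libraries beside them in black. The dashed line is the mean of all rows, 1.88. Alpha and beta places of the run lie below it and gamma C-type places above it.

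Single named rows differed between libraries. The row named Pcdhac2 held 0.0405, 0 and 139 RPKM in replicates 1, 2 and 3, and the row named Pcdha11 held 2.08, 79.2 and 44.1 RPKM. The Pcdha12 row had 0.993, 3.86 and 82.0 RPKM, the Pcdha1 row 0.0197, 77.6 and 0 RPKM and the Pcdhac1 row 1.70, 14.2 and 14.6 RPKM. Each is high in some libraries and low in others. Among beta rows, Pcdhb3 held 3.82, 49.5 and 49.0 RPKM, Pcdhb6 held 33.6, 17.4 and 16.2 RPKM and Pcdhb4 held 27.5, 12.5 and 12.4 RPKM. In these 3 rows replicates 2 and 3 lie together and replicate 1 apart. The Pcdhb1 row held 7.73, 0.259 and 0.302 RPKM and the Pcdhb22 row 1.52, 2.70 and 0.855 RPKM. Of the gamma rows, Pcdhgc3 held 4.35, 10.6 and 9.91 RPKM, Pcdhgc4 held 3.33, 0 and 0 RPKM and Pcdhgc5 held 2.35, 17.9 and 18.7 RPKM. In replicate 1 the values of the Pcdhb4 and Pcdhb6 rows are those of the Pcdhgc3 and Pcdhgc5 places of the run. No member row was listed at 0 in all 3 libraries, where 4598 of the 24458 rows of the table were.

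By row name, 4 of 40 members lay above 1 RPKM (limma, one-sided, adjusted p under 0.05), where 18.3% of all rows did. They were Pcdhb6, Pcdhb4, Pcdha4-g and Pcdhgc3. Pcdhgc3 was the only member called both at its row and at its place in the run. These calls rest on different values, 4.35, 10.6 and 9.91 RPKM at the row and 27.5, 29.5 and 27.4 RPKM at the place. The number was 9 without replicate 1, where 20.3% of all rows were called, and 0 without replicate 2 or without replicate 3, where 5 and 4 members had an unadjusted p under 0.05 by limma. Calls over all rows were then 12.5% and 10.8%. Consecutive 10-row windows over the whole table gave 6 windows that hold members. Of these, 1 lay above the mean of all rows and 1 below it (limma, two-sided, adjusted p under 0.05), where 36.3% of all windows lay above and 33.7% below. With the run placed on the rows of the cluster, 2 lay above and 3 below, where 36.6% of all windows lay above and 33.8% below. Those above hold the end of the alpha places and the beginning of the gamma A and B places (offset 0.17 ± 0.06), and the C-type gamma places with the first beta places (0.34 ± 0.14, SD, n = 3). Those below hold other alpha places (-0.72 ± 0.04) and the remaining beta places (-0.38 ± 0.18 and -0.53 ± 0.16). The run was found by the agreement of the libraries, so its small spread enters these window calls too. Windows elsewhere were not realigned, so the shares over all windows are not an equal reference.

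Related cadherin families and genes that act with the clustered protocadherins were read by row name only, and their values may be displaced in the same way. Of 12 non-clustered protocadherin rows, 5 lay above 1 RPKM by limma, where 18.3% of all rows did. Among them were Pcdh1 at 30.0, 38.1 and 38.5 RPKM and Pcdh15, known for its part in hair cells of the ear, at 40.6, 28.1 and 29.2 RPKM. The Pcdh20 row, with 12.6, 96.1 and 83.4 RPKM, was also called. Of 19 classical cadherin rows 2 were called, and the highest, Cdh8, Cdh7 and Cdh22, each had 1 library well above the other 2. Cdh8 held 3.36, 651 and 1.53 RPKM. Of 8 atypical cadherin rows found among 9 listed, 1 was called, Fat2, with 52.6, 45.1 and 45.5 RPKM, while Fat4 held 181, 2.78 and 3.30 RPKM and Celsr1 held 7.41, 69.0 and 6.41 RPKM.

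Of 20 rows for promoter choice and chromatin of the cluster, 6 were called, where 18.3% of all rows were. Among them was the cohesin subunit row Stag2 with 18.2, 25.3 and 25.3 RPKM. The histone methyltransferase rows Ehmt1 and Ehmt2 were not called, with 0.488, 51.6 and 71.7 RPKM for Ehmt1. Of 16 rows for proteins that bind or cleave the protocadherins inside the cell, 8 were called. They include the gamma-secretase subunit row Psenen, at 60.4, 50.8 and 49.7 RPKM, and the actin regulator row Abi2, at 40.3, 43.6 and 46.8 RPKM. The Wasf1 row held 10.4, 48.1 and 168 RPKM and was not called. Median levels of these lists, from 2.22 to 3.06 in mean log2(RPKM + 1), stand beside 1.59 for all rows.

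Marker rows of the tissue were read by name too, and whether they are displaced was not tested. Granule neurons, the main cell type of the dentate gyrus, had 1 of 9 marker rows above 1 RPKM by limma, where 18.3% of all rows were. It was Rfx3, with 17.8, 42.1 and 22.5 RPKM. The summed level of the 9 rows was 67.2 to 578 RPKM over the libraries. The 3 rows with the highest means were above 1 RPKM in every library but varied widely and were not called. They were Neurod1 with 8.00, 285 and 8.43 RPKM, Calb1 with 7.18, 91.3 and 89.8, and Stxbp6 with 4.92, 59.8 and 68.4. The Prox1 row, of the factor that defines these neurons, held 1.58, 39.3 and 0 RPKM. At the low end, the C1ql2 row held 0.698, 0.476 and 0.462 RPKM. Some other marker rows held similar values in all 3 libraries, such as the microglial complement row C1qa with 29.5, 24.5 and 23.2 RPKM and the endothelial junction row Cldn5 with 35.5, 30.1 and 28.6 RPKM. Others did not, such as the endothelial rows Kdr, with 1.97, 3.49 and 14.5 RPKM, and Ly6c1, with 17.8, 0 and 0 RPKM. The microglial row P2ry12 held 9.34, 54.1 and 56.1 RPKM. By limma, microglial rows had 7 of 8 above 1 RPKM, interneuron rows 2 of 6, and astrocyte and endothelial rows 1 each of 7 and 5. The Csf1r and Flt1 rows were listed at 0 in all 3 libraries.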

How the data were processed

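The authors deposited RPKM values, 1 column per animal, made with TopHat2 and Cufflinks on mm9, per the submitters' processing notes. The sources used here do not give versions, annotation or filters. A further 9 value columns match no listed sample and were not used. The estimated values are not whole reads, so depth is unknown and no counting interval is given. Replicates are separate animals, and with 1 group no test between conditions was possible. Members, lists and tests were chosen with earlier results of these data known. The run of values was found after the data were seen, with 0.1 RPKM added for the search. Levels were tested with limma 3.58.1 in R 4.3.3 on log2(RPKM + 1), with an intercept-only model and Benjamini-Hochberg adjustment over all 24458 rows (variance trend, one-sided against 1 RPKM) or all 2431 windows of 10 rows (two-sided against the mean of all rows). Both were tested on simulated data. Shared transcript sequence was counted in words of 50 bases over the longest coding transcript of each cluster gene in GENCODE M21. The rule for named rows took the 3 highest rows, the first and last row and the C-type rows of each block, the rows at 0 in every library, and the 3 highest rows of each related list. Other places of the run, and the Rfx3 and C1ql2 rows, were named after their values were seen. Alternatives changed the pseudocount, filter, level, window, block edges, scaling and libraries. One marker list is not reported here.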

Additional observations from a re-analysis of the deposited data

How the results depend on the processing

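Placing the run on the rows of the cluster, an alternative chosen after seeing the data, moved 10 results. The gamma C-type mean went from 2.42 to 3.95 and the beta mean from 2.37 to 1.37. Gamma C-type minus alpha went from 0.64 to 2.63, gamma C-type minus beta from 0.05 to 2.58 and alpha minus beta from -0.59 to -0.051. Shares at 1 RPKM or more became 71.1% for alpha, 100% for gamma C-type and 75.0% for all members, and windows holding members 2 above and 3 below. With the gamma A and B rows, also added later, the gamma mean was 2.06. A pseudocount of 0.1 gave means of 0.44 for alpha, 1.52 for gamma C-type and 1.24 for all members, with gamma C-type minus alpha at 1.08 and alpha minus beta at -1.31. At 5 RPKM the shares were 22.2%, 44.4%, 43.9% and 35.8% for alpha, gamma C-type, beta and all members, with 1 member and 2041 rows called. Alpha rows widened by 5 rows gave 58.7%. Windows above and below numbered 1359 and 1451 with 5 rows, 539 and 452 with 20 rows, and 513 and 536 with rows at 0.1 RPKM or more. Windows holding members numbered 0 above by limma with 20 rows and with that filter (0 at an unadjusted p under 0.05), and 2 below with the filter. Leaving out a library gave 2649 to 4968 rows called and 0 to 9 members (5 and 4 at an unadjusted p under 0.05 for the counts of 0, by limma), or with the run in place 2685 to 4994 rows and 3 to 5 members. At the named rows, windows holding members numbered 1 to 2 above and 1 to 2 below without 1 library. Of 148 alternatives, 109 stayed within 1 SD or 1.5 times the count and 39 moved. The cause was not tested except where the setting changes what is tested. The SD is that of the main result at the named rows, so staying within it can include a change of sign. Gamma C-type minus beta, 0.054 ± 0.503 there, was -0.228 with a pseudocount of 0.1 and -0.093 with widened blocks. Without replicates 1, 2 and 3 in turn it was -0.153, -0.020 and 0.334, and all of these counted as unmoved. Edges could not be left out of the 3 gamma rows. No paired comparison between groups was possible because there is only 1 group, E24. RPKM carry no read depth, and its effect on precision was not assessed.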
